A study of Mus musculus with 78 samples.

Results

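The first 2 weeks after birth were followed in the brain of the inbred 129s6 wild-type mouse, by comparing the 3 arrays titled P0 WT129s6 with the 3 titled P14 wt129s6. These 6 arrays were chosen by their titles alone, and they are 6 of the 78 arrays of a study of brain development in wild-type mice and in mouse mutants of the LIS1 complex, which moves young neurons into place. The 78 arrays fall into 26 groups of 3. Both inbred groups carry no mutation, no transgene and no treatment in their labels, which give WT inbred background, brain as the tissue and postnatal day 0 (P0) or 14 (P14) as the age; the descriptions call these samples embryos although the age is after birth. Wild types of 2 mixed backgrounds, labelled WT mix background A and B and called mixed A and mixed B here, were measured at the same ages with 3 arrays each. The labels do not say what went into the mixed backgrounds, how many animals gave RNA to an array or which region of the brain was taken. No inbred wild type at embryonic day 14 was analysed here, so the step before birth is not described. The labels call the 3 arrays of a group biological replicates, and the p-values below measure the spread between such samples only.

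A mouse is born with most of its forebrain neurons in place but hardly connected. In the days that follow, division in the ventricular zones winds down, axons stop extending, synapses form, oligodendrocytes wrap axons in myelin, and radial glia give way to astrocytes. The proteins behind these steps are well known: doublecortin and LIS1 act on the microtubules of migrating neurons, polysialic acid keeps growing axons loosely attached, and myelin is built from a small set of membrane proteins and from galactolipids.

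Levels are the deposited log2 values of 1 probe set per gene, and a level of one probe set says nothing against that of another. A change is the mean at P14 minus the mean at P0, less the change of the median gene (0.049), so that a change of 1 is a 2-fold rise against the median gene; the error after ± is the standard error of the fit, with n = 3 arrays at each age. A gene is called, and is said to have risen or fallen, when limma's test of the deposited difference gave a Benjamini-Hochberg adjusted p under 0.05 over the 12531 genes tested. All adjusted p-values below are of this kind. No source used here says whether arrays of both ages were normalized together. With the values of each array sorted, the root mean square difference between 2 of the 18 wild-type arrays had a median of 0.0463 over 72 pairs of one age and of 0.128 over 81 pairs of different ages. The tests of the deposited difference rest on that scale. Where a level lies under 5.253, the median of all deposited values, the probe set was near the low end of its range and the size of a change depends on that floor.

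Pairs of arrays of one age correlated with r between 0.989 and 0.994 across genes, and their values differed by a median of 0.115 to 0.171. Actin control probe sets at the 3' and 5' transcript ends differed by 0.122 to 0.209 at P0 and 0.612 to 0.697 at P14. This sign of RNA or labelling quality moved with age. Those of Gapdh differed by 0.003 to 0.131 at P0 and by 0.039 to 0.121 at P14, ranges that overlapped. The part of RNA or labelling quality in the results was not tested. No sample was measured at both ages, so age and anything handled separately for each age cannot be told apart. Neuronal markers were high at both ages, as the label brain requires: Snap25, a protein of synaptic vesicle release, lay between 10.62 and 10.91 at P0 and between 12.42 and 12.57 at P14. Of all 18193 genes measured, 5960 (32.8%) stayed below the median of all values at both ages. Of 19 measured genes of the cerebellum list 10 did so, among them Gabra6 at 3.16 to 3.84 and Pcp2 at 4.07 to 4.74, and of 19 measured genes of midbrain, hindbrain and cord 14 did. Other cerebellar genes were clearly detected, such as Zic1 at 8.78 to 9.35 at P0. All 6 arrays had low Xist (4.31 to 5.18) and a clear level of the Y-linked Eif2s3y (7.48 to 8.95).

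Most of the transcriptome moved between the ages. Of 12531 genes tested 8998 (71.8%) were called, 4812 (38.4%) of them higher and 4186 (33.4%) lower at P14. With a change of at least 2-fold, 1481 genes (11.8%) rose and 1368 (10.9%) fell. The size of the changes was not symmetric: 25 genes rose by 4 log2 units or more and 6 fell by as much, and between 3 and 4 log2 units there were 73 rising and 26 falling genes. Of the genes that rose at least 2-fold 419 (28.3%) lay below the median of all values at P0, and of those that fell at least 2-fold 300 (21.9%) lay below it at P14. The 3 arrays of one age did not overlap with those of the other for 9196 genes (73.4%). The counts of list members below are to be read against these shares, and a list's median against 0, the median over all genes tested, for which the middle 90% of changes ran from -1.44 to 1.65.

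**Figure D1:**
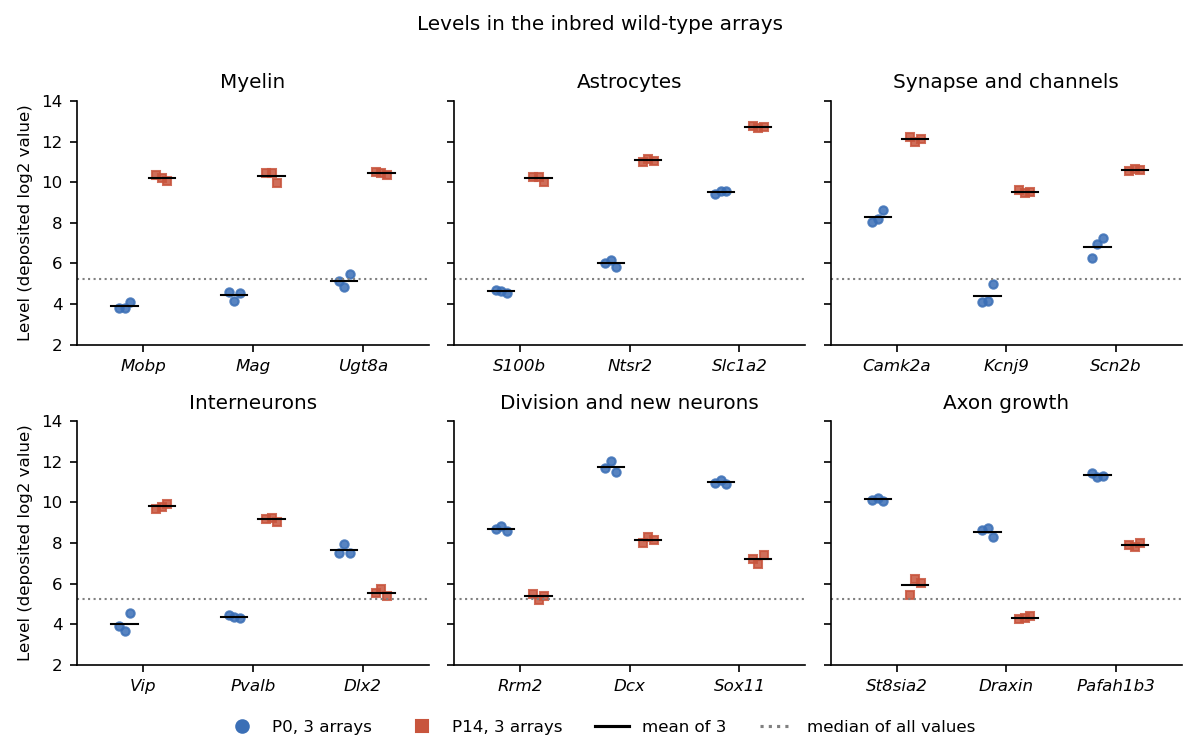
Deposited log2 level (y axis) of 18 genes (x axis) in each of the 3 P0 arrays (circles) and 3 P14 arrays (squares) of the inbred wild type; bars are means of 3 arrays and the dotted line is the median of all deposited values, 5.253. In every panel the P0 and P14 arrays of a gene stand apart, for example Mobp at 3.82 to 4.10 against 10.04 to 10.35.

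Genes of the myelin sheath rose the furthest. Of the 15 tested genes of myelin structure 14 rose and 1 fell, with a median change of 3.20. Mobp, a small basic protein that compacts central myelin, was at 3.83, 3.82 and 4.10 in the P0 arrays and at 10.35, 10.23 and 10.04 in the P14 arrays, a change of 6.24 ± 0.13 (adjusted p = 1.28e-17). Mag, the adhesion protein on the inner face of the sheath, went from 4.60, 4.13 and 4.56 to 10.44, 10.43 and 9.98, a change of 5.81 ± 0.16 (adjusted p = 1.4e-16). Mog, on the outer face of the sheath, went from 3.53, 3.51 and 3.41 to 9.01, 8.76 and 8.63 (5.27 ± 0.14). None of these P0 arrays came near a P14 array, and all 3 genes lay below the median of all values at birth. Cldn11, which seals the layers of myelin with tight junctions, rose by 3.99 ± 0.15 from 5.64, 5.64 and 5.08 to 9.68, 9.28 and 9.51. Mbp, the major basic protein, was named after its values were seen. Its probe set was at 7.73 to 7.85 at P0 and at 8.35 to 8.70 at P14, a rise of 0.62. This is the reading of 1 probe set, and how well it stands for all Mbp transcripts was not tested. The single falling member was Cntn2, an adhesion protein that is carried by growing axons before it is found beside the nodes of myelinated axons. It went from 9.43, 9.63 and 9.35 to 6.39, 6.13 and 6.41, a change of -3.21 ± 0.14 that its 3 other probe sets shared in direction.

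The enzymes that make myelin lipids followed. Of 10 tested genes 9 rose and 1 fell, with a median of 2.24. Ugt8a, which makes galactosylceramide, went from 5.15, 4.82 and 5.49 to 10.49, 10.47 and 10.37 (5.24 ± 0.19, adjusted p = 6.15e-15). Fa2h, which hydroxylates the fatty acids of these lipids, rose by 4.57 ± 0.12, the glycolipid transfer protein Gltp by 2.74 ± 0.13, and the sulfotransferase Gal3st1, which turns galactosylceramide into sulfatide, by 2.41 ± 0.21. Sptlc2, a subunit of the enzyme that starts all sphingolipid synthesis, fell by 0.42 and was not called with the mean of all its probe sets (-0.20). Each of the 4 rising genes had P14 arrays above all P0 arrays by more than 2 log2 units.

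Of 10 tested regulators of the oligodendrocyte lineage 5 rose and 1 fell, with a median of 0.49. Myrf, the factor that switches on myelin genes, went from 5.03, 4.71 and 5.05 to 8.35, 8.39 and 8.08 (3.30 ± 0.14). Sox10 rose by 2.29 ± 0.16, Nkx2-2 by 2.05 ± 0.20, Olig1 by 1.62 ± 0.07 and Olig2 by 0.85 ± 0.14. St18, a zinc finger factor, fell by 2.22 from 6.41, 6.57 and 6.53. Among the 10 tested genes listed for oligodendrocyte precursors 9 rose and 1 fell, with a median of 0.66. Gpr17, a receptor of precursors that have begun to differentiate, went from 6.04, 6.18 and 6.18 to 10.29, 10.17 and 10.23 (4.05 ± 0.20), and Bcas1, a marker of the same stage, rose by 4.05 ± 0.10. Vcan, a proteoglycan made by precursors and by the early brain matrix, fell by 2.15. In tissue RNA, more cells of a type and more RNA per cell cannot be told apart, here and in what follows.

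Genes of cholesterol synthesis fell more often than they rose. Of 19 tested sterol genes 3 rose, 9 fell and 7 were not called, with a median of -0.45. Fdps, which makes farnesyl diphosphate, was at 11.60, 11.69 and 11.36 at P0 and at 10.08, 10.24 and 10.29 at P14, a change of -1.40 ± 0.11 (adjusted p = 8.44e-10) with no overlap between the ages. Lss fell by 1.09, Fdft1, the squalene synthase, by 1.06 and Sqle, squalene epoxidase, by 0.72. The 3 rising genes were Msmo1 (0.41 ± 0.17), Ebp (0.35 ± 0.14) and Tm7sf2 (0.30 ± 0.13). Without P0 replicate 3, or without P14 replicate 1, 1 member rose. The call of Msmo1 was lost without P0 replicate 1, P14 replicate 1 or P14 replicate 3, that of Ebp without P0 replicate 3 or P14 replicate 2, and that of Tm7sf2 without P0 replicate 3 or P14 replicate 1. Msmo1 was also not called with the mean of all its probe sets (0.11), and lost its call in 5 of 15 alternatives in all.

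**Figure D2:**
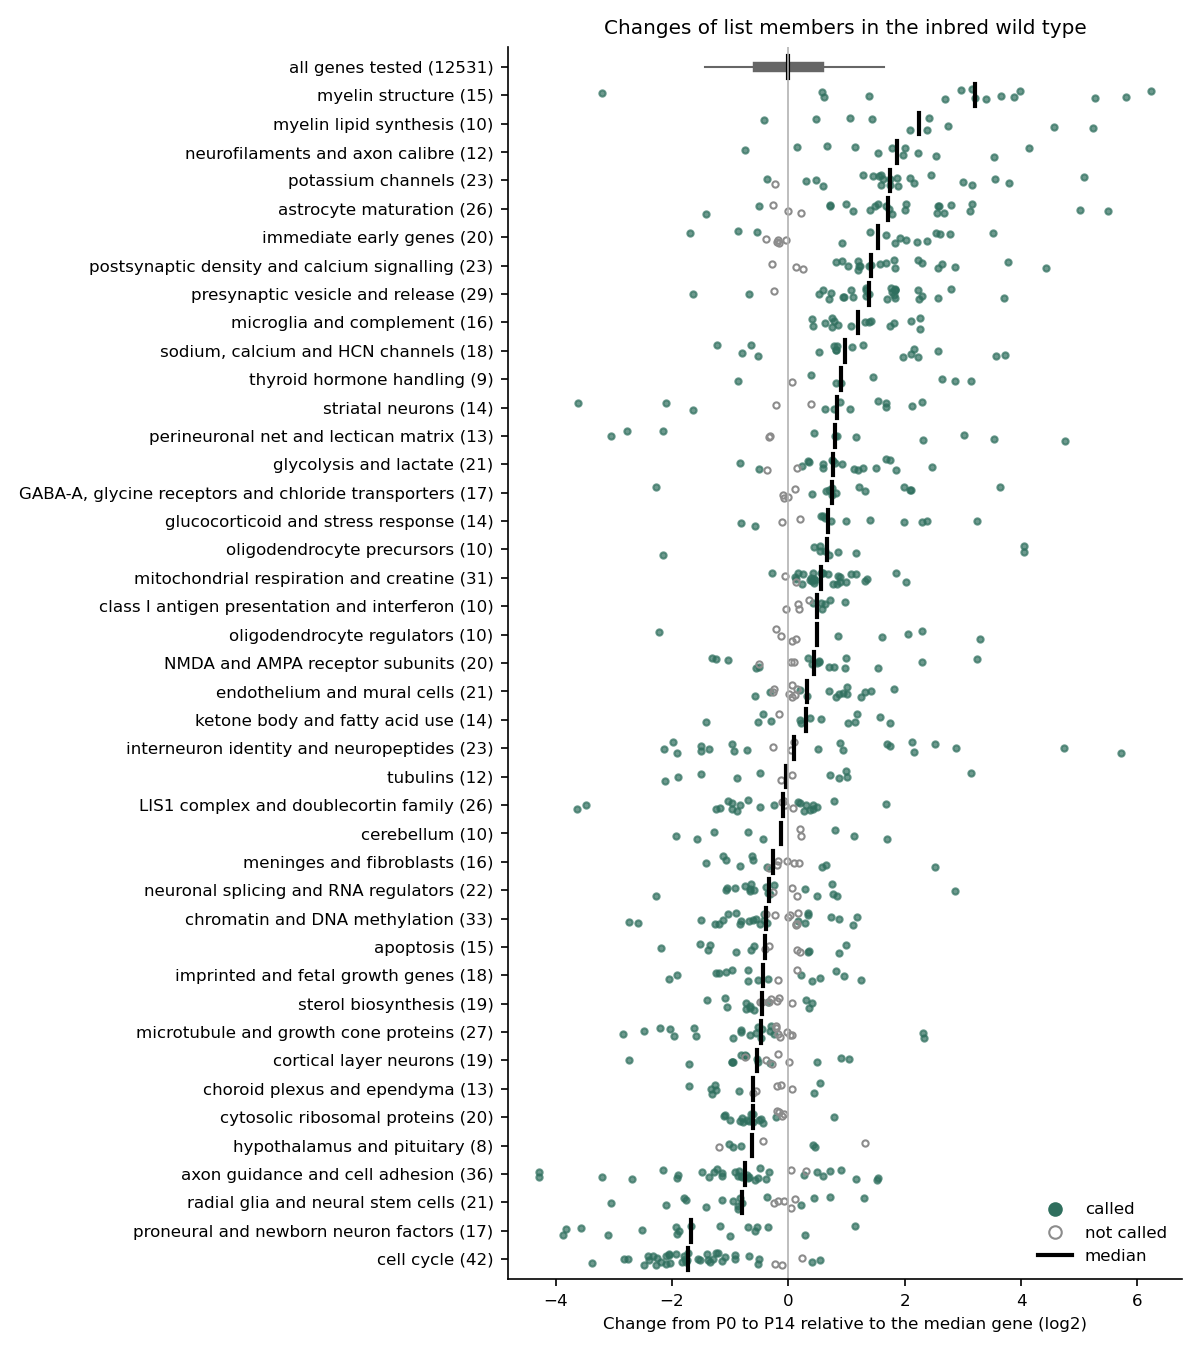
Change from P0 to P14 relative to the median gene (x axis, log2) of every tested member of each gene list with at least 8 tested members (y axis, number in brackets); filled points were called, open points were not, and black bars are medians. The list medians run from -1.73 (cell cycle) to 3.20 (myelin structure), beside the spread of all genes tested in the top row, where the thin line covers the middle 90%.

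Astrocyte genes rose almost as a body. Of 26 tested genes 21 rose and 2 fell, with a median of 1.71. S100b, a calcium-binding protein of mature astrocytes, went from 4.71, 4.67 and 4.56 to 10.28, 10.26 and 10.03 (5.50 ± 0.13, adjusted p = 3.92e-17). Ntsr2, a neurotensin receptor of astrocytes, went from 6.04, 6.19 and 5.83 to 11.02, 11.13 and 11.07 (5.01 ± 0.12). Slc1a2, the main glutamate transporter, went from 9.44, 9.58 and 9.59 to 12.74, 12.66 and 12.72 (3.12 ± 0.08), whereas Slc1a3, the transporter already used by radial glia, rose by 0.72 ± 0.08. The potassium channel Kcnj10, which clears potassium after neuronal firing, rose by 3.16 ± 0.16. The fallers were Fabp7, the brain lipid-binding protein of radial glia, from 12.99, 12.85 and 12.91 to 11.56, 11.50 and 11.58 (-1.42 ± 0.07), and Sox9, a factor of glial progenitors, by 0.51, though the other probe set of Sox9 had the opposite sign and their mean was not called (-0.17). Further astrocyte-rich genes stood among the largest risers of all: Fam107a (5.51 ± 0.26), Gpr37l1 (5.14 ± 0.13) and Aldh1a1 (4.56 ± 0.17).

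Microglial genes rose without exception among those tested, 16 of 16, with a median of 1.20. P2ry12, the nucleotide receptor of resting microglia, was at 6.77, 5.96 and 6.10 at P0 and at 8.62, 8.54 and 8.63 at P14 (2.27 ± 0.31, adjusted p = 1.63e-06). Tmem119, a microglial surface protein, went from 6.12, 5.25 and 5.39 to 7.88, 7.84 and 7.98 (2.26 ± 0.17), and Csf1r, the receptor on which microglia depend, rose by 1.81 ± 0.11. P0 replicate 1 was the highest of the newborn arrays for both P2ry12 and Tmem119, and still below every P14 array. The 10 tested genes of class I antigen presentation and interferon response rose in 6 cases and fell in none, with a median of 0.50, among them Ifi27 (0.98 ± 0.12) and B2m (0.59 ± 0.14).

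Of 21 tested genes of endothelium and mural cells 12 rose and 2 fell, with a median of 0.32. Slco1a4, an organic anion carrier of the blood-brain barrier, rose by 1.81 ± 0.15, and Mfsd2a, which carries docosahexaenoic acid into brain, by 1.31 ± 0.12. The pericyte gene Rgs5 rose by 1.42 ± 0.20, but was not called with the mean of all its probe sets (0.47). The adhesion protein Pecam1 fell by 0.58 and the amino acid transporter Slc7a5 by 0.32; in both, the P0 and P14 arrays overlapped, and 1 of the 2 was left without P0 replicate 2, P14 replicate 1 or P14 replicate 2. The call of Slc7a5 was also lost without P0 replicate 3, and in 6 of 15 alternatives in all. Of 13 tested genes of choroid plexus and ependyma 2 rose and 6 fell, with a median of -0.61. The risers numbered 1 without P0 replicate 1 or 2 and without P14 replicate 1 or 3. Kcne2, a channel subunit of the choroid plexus, went from 6.29, 6.12 and 5.10 to 4.14, 4.24 and 4.14 (-1.71 ± 0.25).

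Meningeal and fibroblast genes did not move as 1 group, and an array stood apart in them. Of 16 tested genes 3 rose and 7 fell, with a median of -0.26. Their mean level was 8.22, 8.14 and 7.58 in the P0 arrays and 7.83, 7.86 and 7.92 in the P14 arrays, so P0 replicate 3 was the lowest of all 6. Lum, a collagen-binding proteoglycan, was at 7.63, 7.19 and 6.36 and then at 5.60, 5.79 and 5.69 (-1.42 ± 0.21). Without P0 replicate 1 or without P0 replicate 2 the fallers numbered 4, and without P0 replicate 3 they numbered 9. P0 replicate 3 also had 15 genes at least 1 log2 unit below both other P0 arrays and 2 above them, against 2 genes in all for P0 replicate 1 and 0 for P0 replicate 2. Of the P14 arrays, replicate 1 had 9 genes above and 1 below both others, replicate 2 had 0, and replicate 3 had 2 above and 1 below.

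Genes of cell division fell together. Of 42 tested genes of the cell cycle 37 fell, 32 of them at least 2-fold, and 2 rose, with a median of -1.73. Mki67, the proliferation marker, was at 8.54, 8.46 and 7.85 at P0 and at 5.66, 5.56 and 5.29 at P14, a change of -2.83 ± 0.18 (adjusted p = 4.33e-11). Rrm2, which makes deoxynucleotides for replication, went from 8.69, 8.86 and 8.58 to 5.51, 5.21 and 5.42 (-3.38 ± 0.15). The spindle proteins Tpx2 and Nusap1 fell by 2.75 and 2.49, and Birc5, survivin, by 2.19. Every P0 array lay above every P14 array for these 5 genes, and at P14 several of them were below the median of all values, so the size of those falls depends on the floor. Cdkn1c, which stops division in progenitors, also fell, by 2.04. Ccnd1, a cyclin of the first gap phase that neurons and glia keep, rose by 0.55 ± 0.11 from 7.84, 7.82 and 8.17 to 8.59, 8.66 and 8.37. The other riser was Ccne2 (0.40 ± 0.16), which was below the median of all values in all 6 arrays and overlapped between the ages. Its call was lost without P0 replicate 1 or without P14 replicate 2 or 3, which left 1 riser, and in 4 of 14 alternatives in all. With the stricter filter on low values 20 cell cycle genes were counted as falling.

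Promoters of the cell cycle list were searched for the short motifs known from cell cycle promoters. The list was made of known cell cycle genes, so the shares below do not bear on why its members fell. Windows of 250 bases before the gene start were taken from RefSeq for GRCm38.p6 and were found for 36 of the genes on the cell cycle list. The source held 32851 windows for 27025 genes, and only the first listed window of each gene was searched. CCAAT, the letters of the NF-Y motif, was found on either strand in 27 of 36 windows (75%). It was found in 34.5% of the windows of all 27025 genes and in 36% of those of the 10094 genes that were tested. The E2F letters TTTGGCGC, TTTCCCGC, TTTCGCGC, TTTGCCGC or TTCCCGCC were found in 9 of 36 (25%), against 3.29% and 5.84%. TTTGAA, the letters of the CHR element of late cell cycle genes, was in 8 of 36 (22.2%), against 16.3% and 10%. Among the 30 windows of members that fell, 25 (83.3%) held CCAAT, 8 (26.7%) E2F letters and 8 (26.7%) TTTGAA. A match is a description of the letters and not evidence of binding.

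Windows of 6 falling genes are printed to show how these letters lie, 3 genes of mitosis with CCAAT and TTTGAA and 3 genes of DNA synthesis with CCAAT and E2F letters. They were picked after the search. Capitals mark the matches on either strand, the sequence runs 5′ to 3′ on the gene's strand, and the last base is the one before the gene start. The windows are chr7:135716380-135716629 on the minus strand for Mki67, chr2:164769679-164769928 on the plus strand for Ube2c, chr4:118437344-118437593 on the minus strand for Cdc20, chr5:138171884-138172133 on the minus strand for Mcm7, chr10:128014965-128015214 on the plus strand for Prim1 and chr7:102441445-102441694 on the plus strand for Rrm1.
Mki67: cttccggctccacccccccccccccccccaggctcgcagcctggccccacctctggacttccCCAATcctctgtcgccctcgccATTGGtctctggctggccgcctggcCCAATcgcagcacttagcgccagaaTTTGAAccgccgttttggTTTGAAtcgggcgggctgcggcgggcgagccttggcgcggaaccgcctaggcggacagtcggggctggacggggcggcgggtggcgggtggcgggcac
Ube2c: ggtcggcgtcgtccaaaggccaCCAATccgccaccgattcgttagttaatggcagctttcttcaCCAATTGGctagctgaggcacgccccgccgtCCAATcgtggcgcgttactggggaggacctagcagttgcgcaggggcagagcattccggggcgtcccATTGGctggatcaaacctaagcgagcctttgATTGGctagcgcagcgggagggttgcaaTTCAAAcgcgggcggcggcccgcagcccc
Cdc20: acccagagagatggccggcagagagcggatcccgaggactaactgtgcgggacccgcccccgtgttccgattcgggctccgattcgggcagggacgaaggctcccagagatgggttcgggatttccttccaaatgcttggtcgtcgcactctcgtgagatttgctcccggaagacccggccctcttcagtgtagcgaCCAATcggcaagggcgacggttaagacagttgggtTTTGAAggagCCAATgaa
Mcm7: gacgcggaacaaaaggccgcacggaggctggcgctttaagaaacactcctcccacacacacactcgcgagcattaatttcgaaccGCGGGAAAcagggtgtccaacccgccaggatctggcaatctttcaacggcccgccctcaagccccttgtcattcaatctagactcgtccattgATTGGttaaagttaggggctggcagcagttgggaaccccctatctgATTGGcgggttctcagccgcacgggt
Prim1: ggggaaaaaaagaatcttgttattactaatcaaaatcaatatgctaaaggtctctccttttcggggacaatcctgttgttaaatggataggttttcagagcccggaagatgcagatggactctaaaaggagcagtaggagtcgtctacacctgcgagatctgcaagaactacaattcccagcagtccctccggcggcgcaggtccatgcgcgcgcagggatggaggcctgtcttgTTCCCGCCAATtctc
Rrm1: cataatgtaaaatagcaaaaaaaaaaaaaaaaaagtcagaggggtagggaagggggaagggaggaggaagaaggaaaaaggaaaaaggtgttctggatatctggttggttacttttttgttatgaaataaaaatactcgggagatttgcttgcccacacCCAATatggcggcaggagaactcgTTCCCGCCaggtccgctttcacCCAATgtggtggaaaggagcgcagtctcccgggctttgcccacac
The 8 capitals in Ube2c hold CCAAT on both strands, and in Prim1 the E2F letters and CCAAT overlap. Apart from Mki67 these genes were named for their motifs after their values were seen. Ube2c and Cdc20, which drive the destruction of mitotic proteins, fell by 2.40 and 2.28. Mcm7, part of the replicative helicase, fell by 2.32, Prim1, the primase, by 2.26 and Rrm1, the partner of Rrm2, by 1.82.

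Genes of newborn neurons fell as well. Of 17 tested proneural and newborn neuron factors 15 fell and 2 rose, with a median of -1.67. Sox11, a factor of immature neurons, was at 10.94, 11.11 and 10.92 at P0 and at 7.23, 6.99 and 7.44 at P14 (-3.82 ± 0.12, adjusted p = 1.63e-15). Igfbpl1 fell by 3.88, Nhlh2 by 3.56 and Insm1, a factor of intermediate progenitors, by 3.09. The risers were Btbd17 (1.14 ± 0.11) and the RNA-binding Elavl4 (0.28 ± 0.13). The direction of Elavl4 turned (-0.01) when all its probe sets were averaged, and its call was lost without P0 replicate 2 or without P14 replicate 2 or 3. Of 21 genes of radial glia and neural stem cells 12 fell and 4 rose, with a median of -0.79. Tnc, a matrix protein of the stem cell niche, went from 9.82, 9.88 and 9.89 to 6.89, 6.82 and 6.89 (-3.04 ± 0.09), and the intermediate filament Vim fell by 2.10. Hopx, which astrocytes keep from their radial glial precursors, rose by 1.30 ± 0.10.

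Other genes among the largest fallers belong to the same period of neuronal birth and outgrowth. B3gnt5, which starts lacto-series glycolipids, fell furthest, from 9.20, 9.08 and 9.14 to 3.75, 4.58 and 4.29 (-4.98 ± 0.15). The ubiquitin ligase Trim67 fell by 4.41, Vash2, an enzyme that trims tubulin tails, by 4.29, the glypican Gpc2 by 4.01 and the chemokine receptor Cxcr4, which guides migrating interneurons, by 3.81. In each of these the 3 P14 arrays lay more than 3 log2 units below the 3 P0 arrays.

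The genes the study was built around were not equally steady. Pafah1b1, which encodes LIS1, was at 10.48, 10.63 and 10.18 at P0 and at 10.53, 10.75 and 10.65 at P14; the arrays overlapped, and the change of 0.17 ± 0.09 was called only narrowly (adjusted p = 0.0452), with 1 of its 3 other probe sets in the same direction. That call was lost in 9 of 15 alternatives. Among them were the mean of all its probe sets (0.045), quantile normalization (0.07), the fit of the 6 inbred arrays alone (0.17), the test against the median gene (0.17) and moderation without a trend (0.17). The others left out P0 replicate 1 (0.20) or replicate 3 (0.02), or P14 replicate 2 (0.13) or replicate 3 (0.17). Ywhae, which encodes 14-3-3 epsilon, was at 12.71, 12.80 and 12.74 and then at 12.69, 12.76 and 12.72 (-0.07 ± 0.05, adjusted p = 0.656). It was called after quantile normalization, where its sign turned (0.06), and in 1 other alternative, where its sign was kept. Ndel1, the partner of LIS1 at dynein, rose by 0.38 ± 0.08 from 9.93, 9.82 and 9.99 to 10.23, 10.43 and 10.35, but was not called with the mean of all its probe sets (0.20); its relative Nde1 rose by 0.78 ± 0.11. Dcx, doublecortin, fell from 11.67, 12.04 and 11.52 to 8.03, 8.29 and 8.17 (-3.63 ± 0.12, adjusted p = 4.03e-15), as did its 3 other probe sets. The catalytic partners of LIS1 in the platelet-activating factor hydrolase fell as well, Pafah1b3 from 11.43, 11.26 and 11.31 to 7.90, 7.82 and 7.99 (-3.48 ± 0.10) and Pafah1b2 by 1.17. Thus of the 3 subunits of this enzyme, both catalytic ones were called lower while the LIS1 subunit was not. Across the 26 tested genes of the LIS1 complex and doublecortin family 10 rose and 12 fell, with a median of -0.10. Katna1, a microtubule-severing ATPase, fell by 1.25, while Cdk5r2, an activator of the kinase Cdk5, rose by 1.69 ± 0.15 from 6.49, 6.71 and 7.17 to 8.57, 8.47 and 8.54.

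Tubulin genes exchanged places by isotype. Of 12 tested tubulins 5 rose and 5 fell, with a median of -0.03. Tuba4a went from 9.62, 9.60 and 10.20 to 12.90, 13.08 and 12.98 (3.13 ± 0.12), and Tubb4a, the isotype of mature neurons and oligodendrocytes, from 10.58, 10.43 and 10.58 to 11.65, 11.59 and 11.52 (1.01 ± 0.07). Tubb3, the isotype of young neurons, went from 12.39, 12.39 and 12.28 to 10.52, 10.48 and 10.54 (-1.89 ± 0.07), Tubb2b fell by 2.11, Tubb6 by 1.50 and Tubb5 by 0.88. For each of these 6 the ages did not overlap.

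Of 27 tested microtubule and growth cone proteins 18 fell and 2 rose, with a median of -0.47. Cd24a, a surface protein of growing neurites, fell by 2.85, and the collapsin response mediators Dpysl5 and Dpysl3 fell by 2.47 and 2.21. The risers were Map1a (2.34 ± 0.17), which is found in mature dendrites, and Map7 (2.31 ± 0.12), which recruits kinesin. Neurofilaments and genes of axon calibre moved upwards, 11 of 12 with 1 falling and a median of 1.87. Nefh, the heavy neurofilament, went from 4.29, 4.15 and 4.77 to 8.68, 8.59 and 8.50 (4.14 ± 0.16), against 1.97 ± 0.12 for Nefm and 1.78 ± 0.12 for Nefl. Thy1, a glycoprotein of mature axons, went from 8.78, 8.67 and 8.89 to 12.36, 12.38 and 12.36 (3.54 ± 0.09). Ina, alpha-internexin, which precedes the other neurofilaments in young neurons, fell by 0.75.

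Axon guidance genes mostly fell, 26 of 36 tested against 8 that rose, with a median of -0.75. St8sia2, the sialyltransferase that puts polysialic acid on NCAM in the young brain, went from 10.14, 10.24 and 10.08 to 5.46, 6.25 and 6.03 (-4.29 ± 0.14, adjusted p = 3.92e-15), and its relative St8sia4 fell by 2.69. Draxin, a repulsive guidance protein of forebrain commissures, went from 8.62, 8.73 and 8.32 to 4.24, 4.31 and 4.42 (-4.28 ± 0.13). Among the risers were the semaphorins Sema3e (1.53 ± 0.13) and Sema5a (1.52 ± 0.15) and the repellent Slit3 (1.16 ± 0.15). Sema3f rose by 0.91 ± 0.22, but from 8.64, 8.45 and 8.59 to 10.37, 9.12 and 9.05, with P14 replicate 1 more than 1 log2 unit above the other two, and with the opposite sign (-0.59) in the mean of all its probe sets.

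The extracellular matrix changed its make-up. Of 13 tested genes of the perineuronal net and of lecticans 8 rose and 3 fell, with a median of 0.80. Hapln1, which links hyaluronan to lecticans, went from 3.73, 3.52 and 3.95 to 8.72, 8.45 and 8.45 (4.76 ± 0.12), and Hapln4, the link protein of mature nets and nodes, rose by 3.02 ± 0.16. The lectican Bcan rose by 2.31 ± 0.12 and Adamts4, a protease that cuts lecticans, by 3.53 ± 0.21. Has3, a hyaluronan synthase, fell by 2.77 from 6.61, 6.81 and 7.21 to 3.97, 4.30 and 4.21.

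Presynaptic genes rose in 26 of 29 cases and fell in 2, with a median of 1.38. Slc17a7, the vesicular glutamate transporter of cortical neurons, went from 6.18, 6.54 and 7.16 to 10.44, 10.40 and 10.31 (3.71 ± 0.19, adjusted p = 8.16e-13). The pentraxin Nptx1 rose by 2.79 ± 0.16, Syn2 by 2.58 ± 0.08 and Sv2b by 2.30 ± 0.08, while Syn3, the synapsin of young neurons, fell by 1.65 and Syt4 by 0.67. The fall of Syt4 was not called with the mean of all its probe sets (-0.045). Of 23 postsynaptic genes 20 rose and 0 fell, with a median of 1.42, though 1 fell without P14 replicate 1. Camk2a, the kinase of synaptic plasticity, went from 8.06, 8.18 and 8.62 to 12.24, 11.97 and 12.13 (3.77 ± 0.12), and its 5 other probe sets rose too. Itpka, a spine protein that phosphorylates inositol trisphosphate, went from 4.87, 4.70 and 5.22 to 9.33, 9.43 and 9.45 (4.42 ± 0.13). Nrgn, neurogranin, rose by 2.86 ± 0.13 and Dlgap2 by 2.63 ± 0.26. P0 replicate 3 was the highest newborn array for Slc17a7, Camk2a, Itpka and Nrgn, and its gap to the P14 arrays was in each case over 2 log2 units.

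Glutamate receptors gave a mixed picture, 12 rising and 5 falling of 20 tested with a median of 0.45. Grin2c, the NMDA receptor subunit of mature granule cells and glia, went from 4.01, 3.94 and 3.97 to 7.33, 7.27 and 7.21 (3.24 ± 0.12). Grin2b, the subunit of young synapses, was at 6.95, 7.55 and 7.01 and then at 7.83, 7.25 and 8.06. Its arrays overlapped, and the call at 0.50 ± 0.20 (adjusted p = 0.0192) was lost without P0 replicate 1, P0 replicate 3, P14 replicate 1 or P14 replicate 3. Grin2a, the subunit that joins later, was below the median of all values in all arrays and was not tested (3.60, 3.48 and 3.78, then 4.96, 4.25 and 5.21). The AMPA receptor subunit Gria3 rose by 1.54 ± 0.09 and the auxiliary Cacng3 by 2.31 ± 0.12. The kainate receptor subunits Grik2 and Grik3 fell by 1.30 and 1.24.

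Inhibitory receptors and chloride transporters rose in 12 of 17 cases and fell in 1, with a median of 0.75. Gabrd, the subunit of extrasynaptic GABA-A receptors, went from 4.77, 4.88 and 4.76 to 8.55, 8.51 and 8.40 (3.63 ± 0.13). Gabra4 rose by 2.08 ± 0.14 and Gabra2, a subunit already used early, by 0.82 ± 0.18. Glra2, the glycine receptor subunit of the embryo, was the single faller, from 9.43, 9.48 and 8.95 to 6.84, 7.07 and 7.26 (-2.28 ± 0.16). Slc12a5, KCC2, which lowers chloride in mature neurons, went from 9.43, 9.73 and 9.63 to 11.57, 11.66 and 11.65 (1.98 ± 0.12). Slc12a2, NKCC1, which raises it, was at 9.46, 9.24 and 9.35 and then at 9.50, 9.55 and 9.46 (0.11 ± 0.10, adjusted p = 0.163), and with the mean of all its probe sets it was called lower (-0.34). Gad2, which makes GABA, rose by 2.11 ± 0.12.

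Most ion channel genes rose. Of 23 tested potassium channel genes 21 rose and 1 fell, with a median of 1.74. Kcnj9, a G protein-gated channel, went from 4.08, 4.14 and 5.01 to 9.61, 9.49 and 9.52 (5.08 ± 0.30, adjusted p = 1.16e-11), and its 3 other probe sets rose. Kcna1, the channel beside nodes of Ranvier, rose by 3.80 ± 0.14 and Kcnj4 by 3.55 ± 0.13, and Kcnd3 fell by 0.36. Of 18 sodium, calcium and HCN channel genes 14 rose and 4 fell, with a median of 0.97. The sodium channels traded subunits: Scn3a, of the young brain, went from 9.10, 8.95 and 9.36 to 7.86, 7.78 and 8.23 (-1.22 ± 0.13), while Scn8a, of mature nodes, went from 7.42, 7.80 and 7.67 to 9.89, 9.64 and 9.84 (2.11 ± 0.11). Scn1a rose by 2.22 ± 0.12. The auxiliary subunits Scn2b and Scn4b rose by 3.73 ± 0.20 and 3.56 ± 0.15, whereas Scn3b fell by 0.80.

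**Figure D3:**
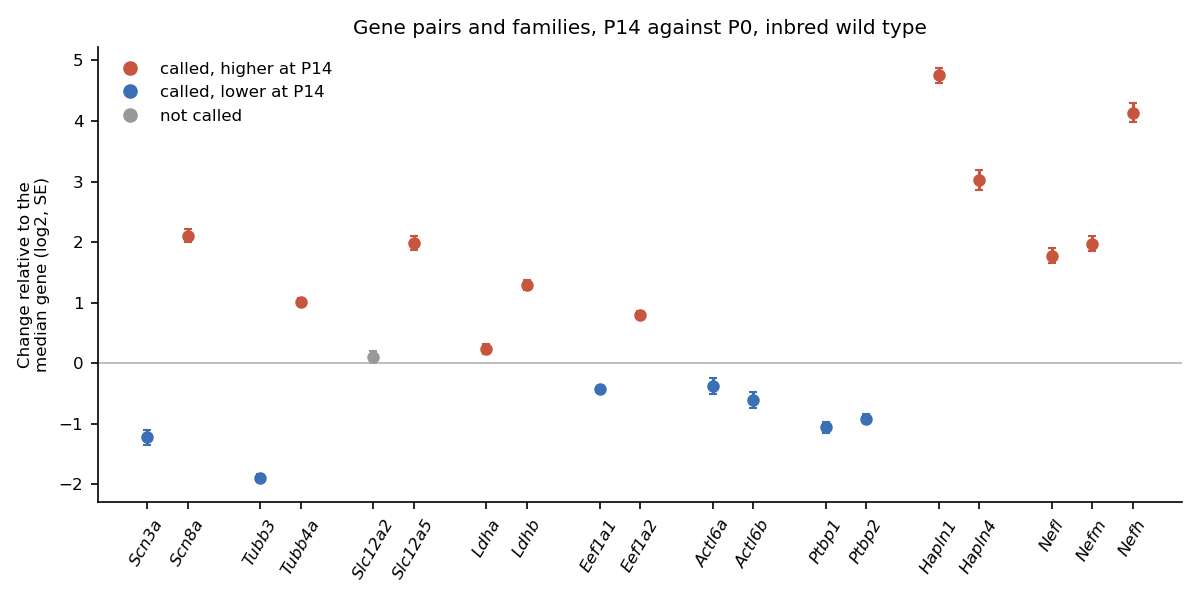
Change from P0 to P14 relative to the median gene (y axis, log2; points with standard errors of the fit, n = 3 arrays an age) for pairs and families of related genes (x axis) in the inbred wild type; colour marks genes called higher, called lower or not called. Scn3a (-1.22) and Scn8a (2.11) lie on opposite sides of 0, and the 3 neurofilament genes rise in the order Nefl, Nefm and Nefh.

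Interneuron genes moved both ways. Of 23 tested 11 rose and 9 fell, with a median of 0.09. Vip, a peptide of interneurons that inhibit other interneurons, went from 3.90, 3.67 and 4.54 to 9.68, 9.79 and 9.93 (5.72 ± 0.18, adjusted p = 1.23e-15). Pvalb, parvalbumin of fast-spiking interneurons, went from 4.46, 4.35 and 4.30 to 9.20, 9.25 and 9.04 (4.74 ± 0.19). Crh rose by 2.88 ± 0.17, Tac2 by 2.52 ± 0.13 and Penk by 2.13 ± 0.16. The peptide Npy (0.09), the calcium-binding Calb2 (0.05) and Nos1 (-0.27) were not called. Dlx2, a factor of the ganglionic eminences where interneurons arise, went from 7.49, 7.96 and 7.50 to 5.52, 5.74 and 5.41 (-2.14 ± 0.15). Dlx1 fell by 1.92, Sp8 by 1.99 and Lhx6 by 1.51. The fallers also included the serotonin receptor Htr3a (-0.93) and the secreted Reln (-0.97). Npy, Calb2, Nos1, Htr3a and Reln were named after their values were seen.

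Genes that mark cortical layers mostly fell, 11 of 19 tested against 3 that rose, with a median of -0.54. Nfe2l3 fell by 2.73, Pou3f3, a factor of upper layers, by 1.70, and Bcl11b and Foxp2, factors of deep layers, by 0.97 each. Rasgrf2 of upper layers rose by 1.04 ± 0.12 and Crym, which binds thyroid hormone, by 0.91 ± 0.10. Striatal genes rose in 9 of 14 cases and fell in 3, with a median of 0.84. Rasd2 rose by 2.30 ± 0.17 and Rgs9, a regulator of dopamine receptor signalling, by 1.68 ± 0.14. The fallers were transcription factors: Isl1 went from 8.67, 8.83 and 8.99 to 4.76, 5.60 and 5.43 (-3.62 ± 0.25), Ebf1 fell by 2.10 and Meis2 by 1.65. Of the 5 tested cholinergic genes 1 rose and 3 fell, Lhx8 by 2.19. Of the 10 tested cerebellar genes 3 rose and 5 fell, and of the 8 tested genes of hypothalamus and pituitary 2 rose and 3 fell. The 6 tested genes of midbrain, hindbrain and cord rose in 5 cases and fell in none, Hoxa5 by 0.97 ± 0.17 from 5.95, 5.91 and 5.92 to 7.50, 6.59 and 6.75.

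Most genes of energy metabolism rose. Of 31 tested genes of mitochondrial respiration and creatine use 28 rose and 1 fell, with a median of 0.56. Ckmt1, mitochondrial creatine kinase, rose by 2.03 ± 0.16, Got1 by 1.85 ± 0.09, the respiratory subunit Cox8a by 1.32 ± 0.06 and Ppargc1a, a coactivator of mitochondrial genes, by 1.36 ± 0.13. Of 21 glycolysis and lactate genes 17 rose and 2 fell, with a median of 0.77, and 1 fell without P0 replicate 2. Eno2, the neuronal enolase, rose by 2.48 ± 0.10, and Slc16a1, which carries lactate and ketone bodies, by 1.85 ± 0.12. The lactate dehydrogenase subunits differed in size of change. Ldhb went from 10.89, 10.69 and 10.87 to 12.08, 12.24 and 12.14 (1.29 ± 0.08). Ldha went from 11.39, 11.46 and 11.07 to 11.54, 11.62 and 11.61, a change of 0.23 ± 0.09 that was not called without P0 replicate 3 (0.10) or after quantile normalization (0.08). Genes of ketone body and fatty acid use rose in 9 of 14 cases and fell in 4, with a median of 0.30.

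Protein synthesis genes fell. Of 20 cytosolic ribosomal proteins and elongation factors 15 fell and 1 rose, with a median of -0.61. Rps19 went from 12.59, 12.59 and 12.64 to 11.60, 11.55 and 11.56 (-1.09 ± 0.06). The riser was Eef1a2, the elongation factor of mature neurons and muscle, from 11.50, 11.65 and 11.78 to 12.48, 12.57 and 12.41 (0.79 ± 0.07). Its early counterpart Eef1a1 went from 13.81, 13.81 and 13.78 to 13.36, 13.44 and 13.45 (-0.43 ± 0.05, and -0.22 after quantile normalization). Probe sets of ribosomal protein genes can share sequence with processed pseudogenes, which the annotation of 1 gene per probe set does not resolve.

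Genes of hormone handling and response rose more often than they fell. Of 9 tested genes of thyroid hormone handling 7 rose and 1 fell, with a median of 0.91. Dio2, which makes active thyroid hormone in astrocytes, went from 7.45, 7.48 and 7.43 to 10.00, 10.14 and 10.27 (2.64 ± 0.11). Klf9, a target of thyroid hormone and glucocorticoid receptors, went from 8.55, 8.66 and 8.44 to 11.62, 11.65 and 11.94 (3.14 ± 0.16), and Hr rose by 1.45 ± 0.11. Of 14 tested genes of the glucocorticoid and stress response 10 rose and 2 fell, with a median of 0.69. Hsd11b1, which regenerates active glucocorticoid, went from 6.46, 5.87 and 6.37 to 9.45, 9.52 and 9.59 (3.24 ± 0.15), and the receptor Nr3c1 rose by 2.30 ± 0.10. Fkbp5, a chaperone induced by glucocorticoids, was at 8.79, 9.07 and 8.90 and then at 7.81, 7.76 and 8.92 (-0.81 ± 0.20), with P14 replicate 3 inside the range of the newborn arrays. The list's mean level was also highest in that array, 8.75 against 8.29 and 8.30. The fallers numbered 1 without P0 replicate 1, P0 replicate 2 or P14 replicate 2.

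Immediate early genes, which neurons switch on when active, rose in 12 of 20 cases and fell in 3, with a median of 1.54. Arc went from 4.77, 4.80 and 4.30 to 8.20, 8.52 and 7.85 (3.52 ± 0.20), Egr1 from 8.63, 9.03 and 8.20 to 11.45, 11.52 and 11.40 (2.79 ± 0.15) and Bdnf from 5.73, 5.70 and 5.73 to 8.22, 8.31 and 8.61 (2.61 ± 0.16). The ages did not overlap for any of these genes. Fosl2 fell by 1.70, with its other probe set of the opposite sign and no call for their mean (-0.35).

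Among regulators of chromatin and RNA some related genes moved in opposite directions and others fell together. Of 33 tested chromatin genes 8 rose and 17 fell, with a median of -0.39. Ezh2, which methylates histone H3 at silenced genes, went from 9.04, 8.86 and 8.86 to 6.42, 6.20 and 6.53 (-2.58 ± 0.11), and Uhrf1 and Dnmt1, which copy DNA methylation after replication, fell by 2.73 and 1.50. Dnmt3a, which adds new methylation in neurons, rose by 1.10 ± 0.12 from 8.55, 8.87 and 8.98 to 9.96, 9.90 and 10.00. Actl6b, the neuronal subunit of the BAF remodelling complex, fell by 0.61. Its progenitor counterpart Actl6a fell by 0.38 with overlapping arrays. That call was lost in 6 of 15 alternatives, among them those without P0 replicate 1 or 3 or without P14 replicate 1 or 2. Of 22 splicing and RNA regulators 6 rose and 13 fell, with a median of -0.34. Mbnl2, a splicing factor of mature neurons, went from 7.52, 7.54 and 7.91 to 10.67, 10.28 and 10.76 (2.87 ± 0.13). Rbfox2 fell by 2.27 while Rbfox1 and Rbfox3 rose by 0.77 ± 0.06 and 0.84 ± 0.09. Ptbp2 fell by 0.92 and Ptbp1, which represses neuronal exons, by 1.06, with 1 other probe set of Ptbp1 going the other way and no call for the mean of all (-0.02).

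Among 15 tested genes of apoptosis 4 rose and 7 fell, with a median of -0.39. Apaf1, the core of the apoptosome, fell by 1.52 from 8.21, 8.05 and 8.25 to 6.43, 6.76 and 6.93, Bbc3 by 1.37 and Bid by 1.35. The rises of Xiap (0.87 ± 0.10) and Bcl2l1 (0.34 ± 0.09) turned to -0.28 and -0.16 when all their probe sets were averaged. Of 18 imprinted and fetal growth genes 6 rose and 10 fell, with a median of -0.43. Dlk1 fell by 1.92 and Mest by 1.19, while Meg3, the RNA made from the other parental copy of the Dlk1 region, rose by 1.25 ± 0.23 with all of its 10 other probe sets in the same direction. Igf1 rose by 0.96 ± 0.12.

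The size of a change also depended on the probe set. With the mean of all probe sets of a gene in place of the brightest, 80 of the 300 genes named by the rule moved by over 1.5 times; 17 lost their call and 7 turned direction. Among called genes above that kept their call, the falls became smaller for Tpx2 (-0.94), Nusap1 (-1.25), Cntn2 (-1.98), Draxin (-2.33), Vcan (-0.79), Dlk1 (-0.49) and Nfe2l3 (-1.39). The same held for Fdps (-0.41), Fdft1 (-0.29), Scn3a (-0.45), Syn3 (-0.81), Tubb6 (-0.90), Grik3 (-0.72), Fkbp5 (-0.445) and Kcnd3 (-0.24). Rises became smaller for Bcas1 (1.46), Kcnj9 (2.80), Gabrd (1.97), Scn2b (1.92), Scn8a (1.27), Syn2 (1.585), Mbnl2 (1.83), Mt1 (1.28) and Sox10 (1.525). So did those of Slc16a1 (1.12), Cox8a (0.87), Rgs9 (0.82), Sema5a (0.71), Hoxa5 (0.61), Dnmt3a (0.57), Rbfox1 (0.51), Igf1 (0.31) and Ccnd1 (0.17). The falls of Tubb5 (-1.57) and Actl6a (-0.86) became larger.

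The inbred step was then set beside the same step in the 2 mixed wild types, which share no arrays with it. Across the 12531 genes the changes correlated with r = 0.956 with those of mixed A and with r = 0.928 with those of mixed B; the points are genes, all measured on 1 platform, and are not independent replicates. Of the 2849 genes that moved at least 2-fold in the inbred wild type, 2845 (99.9%) went the same way in mixed A and 2835 (99.5%) in mixed B. Their median size was 1.44 in the inbred wild type, 1.42 in mixed A and 1.29 in mixed B. These genes were chosen by their size in the inbred wild type, and the difference in median size was not tested.

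**Figure D4:**
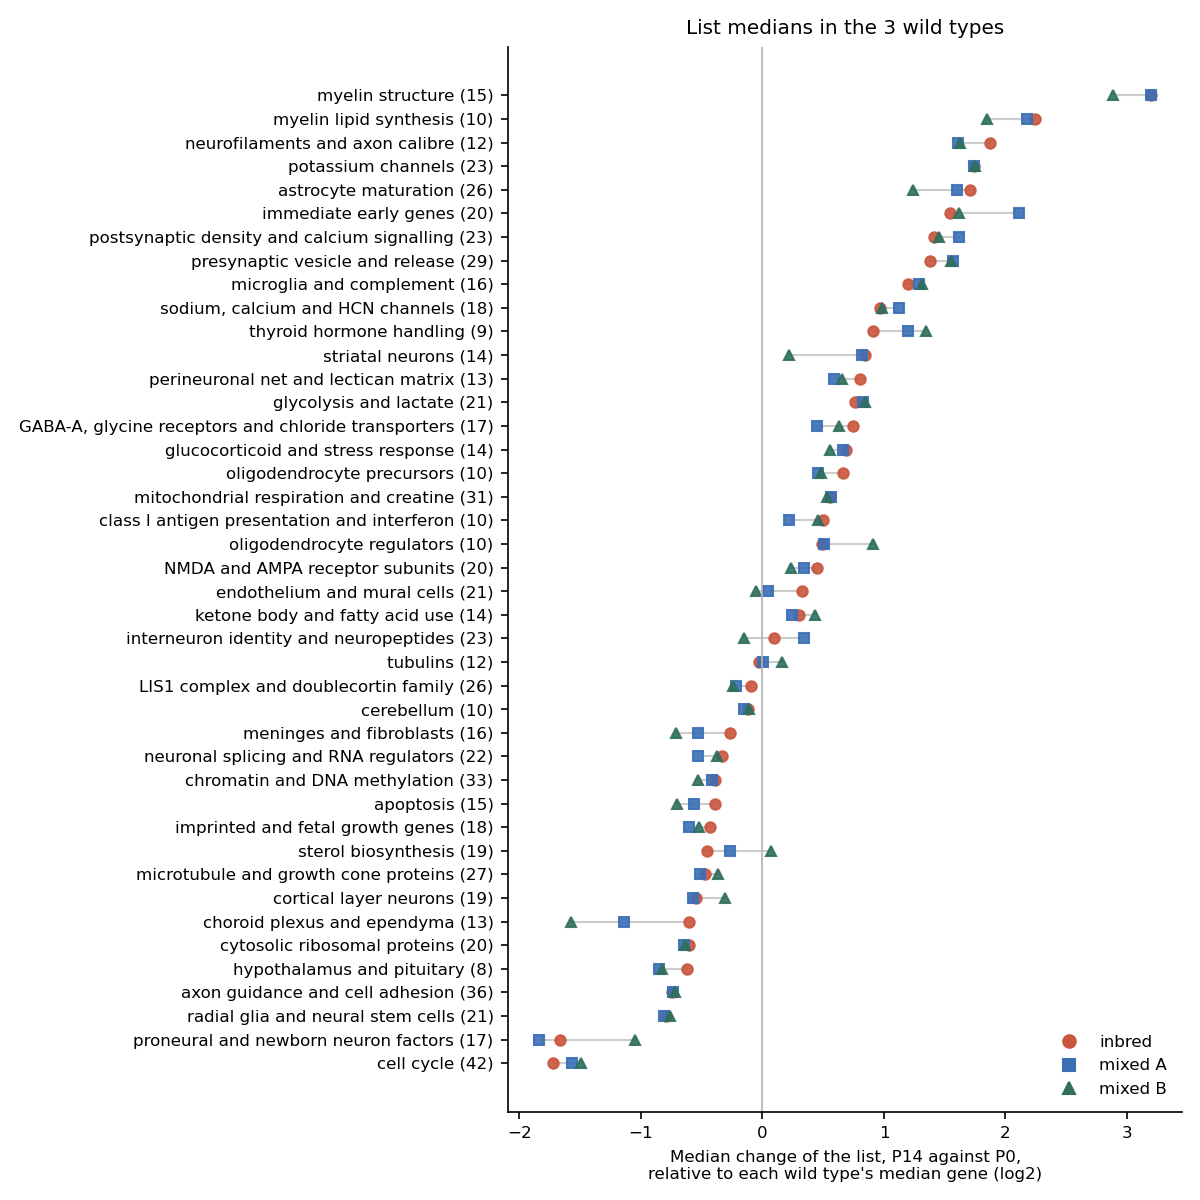
Median change from P0 to P14 (x axis, log2, relative to the median gene of each wild type) of each gene list with at least 8 tested members (y axis) in the inbred, mixed A and mixed B wild types. The 3 medians lie close together for most lists, as for myelin structure at 3.20, 3.20 and 2.89, and apart for striatal neurons at 0.84, 0.82 and 0.22.

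The difference between the steps was tested directly as an interaction. Against mixed A, 246 genes (1.96%) changed differently, 35 (0.279%) higher and 211 (1.68%) lower in the inbred wild type. The difference of the median gene was -0.153 here, and the split rested on it: tested against the median gene, 147 were higher and 13 lower, and after quantile normalization over the 18 arrays 25 were higher and 11 lower. The count rested on single arrays too. It was 540 without inbred P0 replicate 1, 72 without replicate 2 and 28 without replicate 3; 1, 118 and 0 without inbred P14 replicates 1, 2 and 3; 799, 23 and 832 without mixed A P0 replicates 1, 2 and 3; and 5, 1 and 1 without mixed A P14 replicates 1, 2 and 3. Against mixed B, 1196 genes (9.54%) changed differently, 391 (3.12%) higher and 805 (6.42%) lower in the inbred wild type. Tested against the median gene the split was 556 and 541, and after quantile normalization 540 and 630. The count fell to 777 and 779 without mixed B P0 replicates 2 and 3, to 738 without inbred P14 replicate 1 and to 743 without mixed B P14 replicate 1. The differences printed below are relative to the difference of the median gene.

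Some myelin genes rose further in the inbred wild type than in mixed B. Of the 15 tested genes of myelin structure 6 were called higher and 0 lower against mixed B, with 4 to 8 higher across the alternatives, and 0 were called against mixed A. Mag reached 10.44, 10.43 and 9.98 in the inbred P14 arrays, 10.38, 10.12 and 10.16 in mixed A and 9.09, 8.83 and 9.33 in mixed B. Its rise of 5.81 compares with 5.33 and 4.08, a difference of 1.73 ± 0.23 against mixed B (adjusted p = 0.000236). At P0 Mag was at 4.599, 4.131 and 4.558 in the inbred arrays and at 5.131, 4.715 and 4.875 in mixed B. All of these lay below the median of all values, and part of the difference thus lay at P0. Mobp rose by 1.48 ± 0.19 more than in mixed B (adjusted p = 0.00023), or by 0.66 more with the mean of all its probe sets. Of 26 astrocyte genes 5 were higher and 0 lower against mixed B, with 3 to 7 across the alternatives.

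Striatal genes had a median change of 0.84 in the inbred wild type, 0.82 in mixed A and 0.22 in mixed B. Of the 14 tested genes 8 were called higher and 0 lower against mixed B, 7 to 9 across the alternatives. They include Isl1, which fell in both and by less in the inbred wild type (difference 1.69). Ppp1r1b, the dopamine-regulated phosphatase inhibitor DARPP-32, went from 7.87, 8.01 and 8.28 to 9.81, 9.75 and 9.78 in the inbred wild type and from 7.70, 7.64 and 7.77 to 8.47, 7.88 and 8.06 in mixed B, a difference of 1.35 ± 0.17 (adjusted p = 0.00023). Penk differed by 1.50 ± 0.22 and Rgs9 by 1.38 ± 0.20 (0.70 with the mean of all its probe sets). Pcp4l1, named after its values were seen, went from 4.91, 4.96 and 5.29 to 8.38, 8.62 and 8.60 against 5.37, 5.42 and 5.34 to 7.18, 6.37 and 7.08 in mixed B, a difference of 2.04 ± 0.24. In each of these 4 genes the inbred and mixed B arrays did not overlap at P14. Levels at P0 also differed in the marker Tcf7l2 of thalamus and midbrain, named after its values were seen. It was at 8.69, 6.93 and 8.02 in mixed B and at 3.92, 3.70 and 3.87 in the inbred arrays. In mixed A it was at 6.02, 3.74 and 7.80, which reached into the ranges of both other groups. The cerebellar and dorsal midline factor Zic1 was at 10.67, 10.46 and 10.67 at P0 in mixed B, at 10.04, 9.53 and 10.38 in mixed A and at 8.78, 9.35 and 9.08 in the inbred arrays. The part of these regional markers in the differences was not tested.

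Other differences from mixed B concerned sterol genes, metallothioneins and parvalbumin. Of the 19 sterol genes 9 were called lower and 0 higher, 5 to 11 lower across the alternatives, with medians of -0.45 in the inbred wild type, -0.27 in mixed A and 0.07 in mixed B. Fdft1 went from 11.45, 11.24 and 11.20 to 10.19, 10.29 and 10.36 in the inbred wild type and from 10.64, 11.03 and 11.10 to 10.79, 10.74 and 10.88 in mixed B (difference -0.84 ± 0.17, adjusted p = 0.00288). With the mean of all its probe sets this difference was -0.31 and was not called (adjusted p = 0.135). Sqle differed by -0.58 ± 0.13 and Msmo1 by -1.08 ± 0.24 (-0.55 with the mean of all its probe sets). Mt1, a zinc-binding metallothionein, reached 12.07, 12.03 and 12.26 at P14 in the inbred arrays against 11.33, 11.39 and 11.38 in mixed B, and its rise was 1.23 ± 0.14 larger (adjusted p = 6.07e-05). That of Mt2 was 1.70 ± 0.22 larger. At P0 the inbred arrays lay below mixed B, at 9.655 to 9.728 against 10.105 to 10.133 for Mt1. For Mt2 they were at 8.836 to 9.057 against 9.652 to 9.968. Pvalb rose by 1.48 ± 0.27 more than in mixed B (adjusted p = 0.00299), to 9.04 to 9.25 against 8.12 to 8.92. At P0 it was at 4.305 to 4.465 against 4.946 to 5.126, all below the median of all values. Part of each of these differences thus lay at P0.

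**Figure D5:**
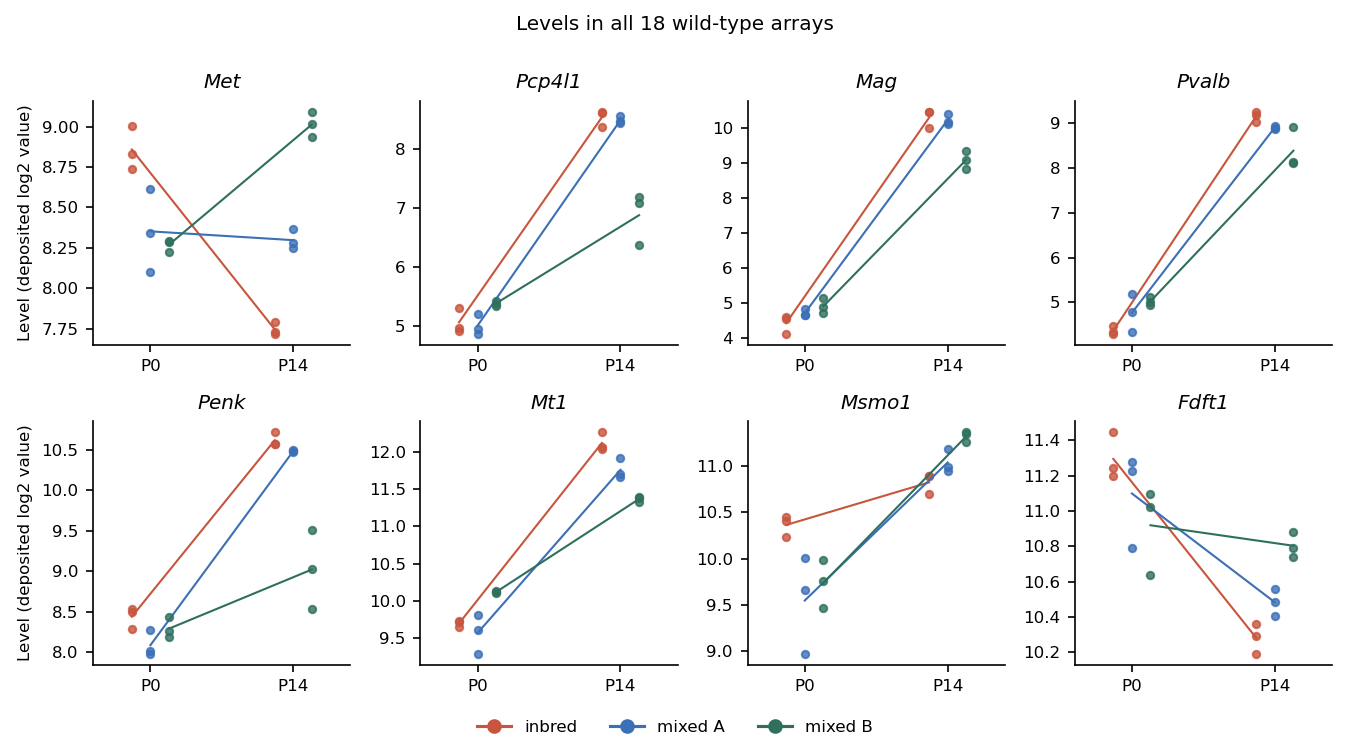
Deposited log2 level (y axis, a separate scale for each gene) of 8 genes at P0 and P14 (x axis) in the 3 arrays of each group of the inbred, mixed A and mixed B wild types; lines join the means of 3 arrays. Met fell in the inbred arrays from 8.74 to 9.01 at P0 to 7.72 to 7.79 at P14, where those of mixed B rose to 8.94 to 9.09.

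In separate tests 83 genes were called against each mixed wild type with 1 sign; both tests share the inbred arrays. In the joint test, in which the larger of both p-values was adjusted anew over all genes, 1 of 12531 (0.00798%) was called, Met. Zic1, with an adjusted p of 0.0475 against mixed A and 0.000479 against mixed B, had 0.221 in the joint test. Met is the receptor tyrosine kinase for hepatocyte growth factor and is made by growing forebrain axons. In the inbred wild type it was at 8.74, 8.83 and 9.01 at P0 and at 7.79, 7.72 and 7.73 at P14 (-1.16 ± 0.11). In mixed A it was at 8.62, 8.34 and 8.10 and then at 8.37, 8.28 and 8.25, and in mixed B at 8.29, 8.29 and 8.23 and then at 9.09, 8.94 and 9.02. The inbred arrays were the highest of the 3 wild types at birth and the lowest at P14, with no overlap at either age. The inbred change differed by -0.91 from that of mixed A and by -1.81 from that of mixed B, -1.36 ± 0.15 on average (adjusted p = 0.0121, the larger of both). Its other probe set fell in the inbred wild type as well. Met was called in 22 of 27 settings. The call was lost without inbred P0 replicate 3 (adjusted p = 0.0591), inbred P14 replicate 2 (0.0641) or replicate 3 (0.06), without mixed A P14 replicate 1 (0.0696) and when tested against the median gene (0.0612), while the mean difference stayed between -1.51 and -1.29.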

How the data were processed

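Deposited log2 values of 6 arrays of the inbred wild type were compared, in a fit over the 18 wild-type arrays at P0 and P14. The authors made these log2 values with RMA (version not given in the sources used here), per the submitters' processing notes. RNA was total RNA taken up in Trizol and biotin-labelled, per the labels' protocols. The number of arrays limits the precision.

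Of 45101 probe sets 34945 named 1 gene and were used; 932 named several, 9160 were unnamed and 64 were array controls. Each of 18193 genes was read from its brightest probe set (mean of the 78 arrays). Testing required a mean of at least 5.253, which is the median deposited value, in 1 or more of the 6 groups, and 12531 genes met this. limma 3.58.1 in R 4.3.3, with the package data.table (version 1.17.8), fitted 1 mean per group and moderated variances with a trend on the mean level. Differences between the steps were interaction contrasts. Against both mixed wild types the larger p was taken if both differences had 1 sign. p-values were adjusted by Benjamini-Hochberg over all genes tested. The tests of the inbred step and of its difference from mixed A were also run on simulated data in which few genes changed. In the real data most genes were called, and the joint test was not simulated. Those runs therefore do not vouch for the counts given here.

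Genes are named by a rule: the 15 largest called risers and fallers, up to 4 called risers and 4 called fallers of each of 47 lists, a fixed set of pairs, and up to 8 genes a direction in the joint test. Unnamed, predicted and Riken genes were passed over. The text gives a selection and says where a gene falls outside the rule. The members and lists were chosen with earlier results of these data known. Promoters are RefSeq's for GRCm38.p6. Alternatives changed the filter, the arrays in the fit, the normalization, the zero of the test, the probe sets, the moderation and the replicate block, and left out each array in turn. Deviations of same-numbered inbred arrays of both ages from their group means correlated with r of -0.038, -0.04 and 0.004. In mixed A these were 0.095, 0.091 and 0.015, and in mixed B 0.005, -0.045 and -0.002. The main fit did not use replicate numbers as pairs. With the replicate block, 1 gene was called against mixed A in place of 246. Handling shared by arrays of one number was not tested.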

Additional observations from a re-analysis of the deposited data

Results flagged for a closer look

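The change from P0 to P14 in the inbred wild type differed from that in mixed A for 246 genes and from that in mixed B for 1196 genes, by the interaction term of limma at a Benjamini-Hochberg adjusted p under 0.05. In the joint test, which takes the larger of both p-values and adjusts it anew, 1 gene was called, Met. The mean difference of Met was -1.357 log2 units, because Met fell in the inbred arrays, changed by -0.24 in mixed A and rose in mixed B. The inbred and mixed groups are separate sets of animals and arrays, so background and anything else that differed between these groups cannot be told apart.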

How the results depend on the processing

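Counts of called genes were 8998 in all, 4812 rising and 4186 falling. They ran from 8538 to 8731, 4496 to 4723 and 3850 to 4061 when single arrays were left out; those with a 2-fold change ran from 1463 to 1506 rising and 1340 to 1426 falling. Without a filter 7345 genes rose; with the stricter filter (highest group mean of at least 7.627) 5993 were called, 3043 rose and 849 fell at least 2-fold, with fewer genes tested. The replicate block gave 8920 called genes. The 246 genes that differed from mixed A became 63 without a filter, 561 with all 24 wild-type arrays, 36 after quantile normalization, 160 against the median gene, 474 with the mean of all probe sets, 1 with the replicate block, and 0 to 832 without single arrays. The 1196 that differed from mixed B ran from 738 to 1084 without single arrays. The 1 gene called in the joint test became 2 after quantile normalization, 0 against the median gene and 0 to 7 without single arrays. Directions turned for Ywhae after quantile normalization (0.064) and, with the mean of all probe sets, for Bcl2l1 (-0.157), Cacng8 (0.116), Elavl4 (-0.01), Nr4a3 (0.202), Sema3f (-0.591), Slc12a2 (-0.342) and Xiap (-0.278); the cause was not tested. Of 4448 values of 300 named genes under the alternatives, 4349 kept their direction and their side of the threshold, and of 1410 counts of list members 1338 stayed within 1.5 times. Of the 4067 called genes with other probe sets, all of those agreed in sign for 3190. Levels below 5.253 bound what the arrays can resolve.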
